A study of Mus musculus with 6 samples.

Results

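The genes described here are 39 genes of the integrated stress response and of the cytosolic aminoacyl-tRNA synthetases, taken from 43432 genes measured by bulk RNA sequencing of mouse atria. They were chosen by name, with earlier results from these 6 mice known, so the counts over the list are a description and no independent evidence of its direction. Wild-type C57/Bl6J mice received a high-fat diet (HFD, obese group, n = 3 mice) or control chow (lean group, n = 3 mice) from 6 weeks of age for 10 weeks, and both groups carried no transgene. Right and left atria were collected at the end of the diet and are not separated in the data. The groups follow the sample titles, which match the columns of the deposited table, whereas the treatment field of the labels names the other diet for all 6 samples, so the direction of each difference below rests on the titles. The sex of the mice is not stated.

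The integrated stress response is the pathway by which cells answer amino acid shortage, unfolded protein, heme lack or viral RNA. Kinases phosphorylate the translation factor eIF2, general translation falls, and the mRNA of the transcription factor ATF4 is translated more efficiently, so that the amount of Atf4 mRNA need not follow the amount of ATF4 protein. ATF4, with C/EBP partners, then raises genes for amino acid synthesis and transport, for the loading of amino acids onto tRNA and for negative feedback, many of them through a C/EBP-ATF response element near the promoter. In heart muscle the pathway is known from mitochondrial disease, in which its targets and the secreted factors GDF15 and FGF21 are raised.

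Values are normalized counts, the number of reads on a gene divided by one size factor per mouse. Between 15874251 and 28971508 reads lay on genes in each library. The most deeply read library, of lean mouse 2, also had the largest share of mitochondrially encoded reads, 30.7% against 19.5% to 24.4% in the other 5. All 39 genes were found by name once capitals were ignored, and 38 of them had a mean of at least 10 normalized counts and were tested with limma on log2(normalized count + 1), with p-values adjusted over all 15275 genes tested (threshold 0.05). Fgf21 was too low to be tested. With 3 mice a group, 0.1 is the smallest p of an exact two-sided permutation test, and 19 of the 38 genes, those whose groups did not overlap, had this value. The 6 atrial myocyte markers were abundant in all 6 libraries, but obese mice 1 and 2 stood apart, with summed levels of 290398 and 287078 normalized counts against 518132 in obese mouse 3 and 442423 to 486138 in the lean mice. This split was seen in Nppa (171702, 179008 and 333975 in obese mice 1 to 3), Myl4 and Myl7, the most abundant markers. Sln and Nr2f2 did not show it. Sln was similar in obese mice 2 (19693) and 3 (19799), and Nr2f2 was lowest in obese mouse 3. Tbx5 went the same way more weakly, at 5300, 5553 and 6454 in obese mice 1 to 3 and 5344 to 6879 in the lean mice. All 6 markers had a log2 fold change below 0 (median -0.36), none was called by limma, edgeR or DESeq2, and 2 had an unadjusted p under 0.05, both lower in obese atria.

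Obese atria contained more RNA of Chac1, Asns and Atf5 than lean atria. Chac1, which encodes a glutathione-degrading enzyme, was 6.04-fold higher, Asns, which encodes asparagine synthetase, 3.42-fold higher, and Atf5, which encodes a transcription factor related to ATF4, 1.98-fold higher. These 3 of the 38 tested genes (7.89%) passed an adjusted p under 0.05 with a higher level in obese atria, where 0.484% of all genes tested did so. None passed it with a lower level, where 0.262% of all genes did (limma); none had an unadjusted p under 0.05 in that direction, against 5.55% of all genes, and none was called lower by edgeR (0.196% of all genes) or DESeq2 (1.22%). edgeR called the same 3 genes higher (0.373% of all genes), and DESeq2 called 10 of the 38 higher (26.3%), against 1.94% of all genes. Without a variance trend in limma none of the 38 was called (14 at an unadjusted p under 0.05), and 1 gene, Chac1, remained called without obese mouse 2, lean mouse 2 or lean mouse 3. An unadjusted p under 0.05 with a higher level was seen for 16 of the 38 (42.1%), against 6.66% of all genes. The 3 obese values all lay above the 3 lean values for 18 genes (47.4%, all genes 8.86%), and all below them for 1, Stc2 (2.63%, all genes 9.17%). The log2 fold change was above 0 for 32 of the 38 (84.2%), against 50.8% of all genes. Its median over the 38 was 0.26, and over all genes tested it was 0.0049, with quartiles of -0.17 and 0.19. In bulk tissue a change in RNA per cell and a change in the share of a cell type cannot be told apart.

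**Figure D1:**
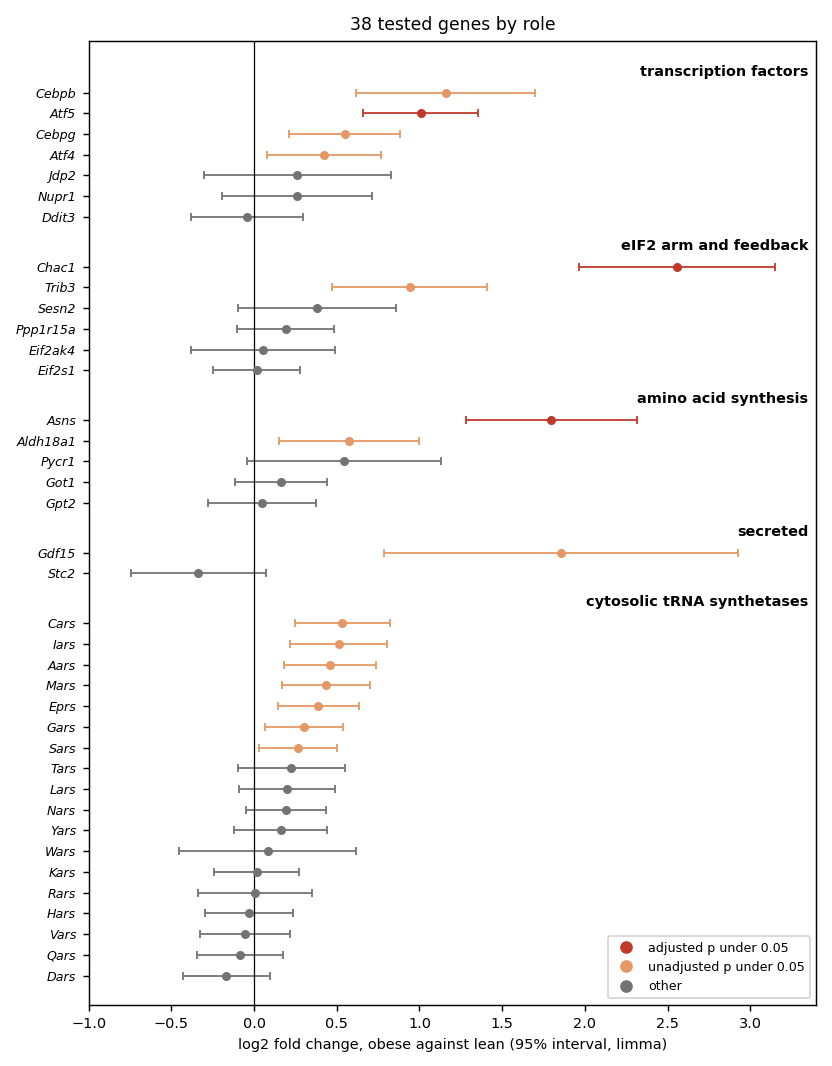
Log2 fold change of obese against lean atria (horizontal axis) with its 95% interval from limma for the 38 tested genes, grouped by role; red points have an adjusted p under 0.05, orange points an unadjusted p under 0.05 only, and grey points neither. Chac1 (2.56), Gdf15 (1.86) and Asns (1.80) lie farthest to the right, and Stc2 (-0.34) farthest to the left.

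The promoters of Chac1 and Asns are shown because these 2 genes had the largest log2 fold changes among the called genes. The sequences are RefSeq's for GRCm38.p6, the 250 bases before the transcription start, 5′ to 3′ on the gene's own strand. Capitals mark the core of the C/EBP-ATF response element, TGATGNAA on either strand. The Chac1 stretch is chr2:119350992-119351241 (plus strand) and the Asns stretch is chr6:7693210-7693459 (minus strand).
Chac1: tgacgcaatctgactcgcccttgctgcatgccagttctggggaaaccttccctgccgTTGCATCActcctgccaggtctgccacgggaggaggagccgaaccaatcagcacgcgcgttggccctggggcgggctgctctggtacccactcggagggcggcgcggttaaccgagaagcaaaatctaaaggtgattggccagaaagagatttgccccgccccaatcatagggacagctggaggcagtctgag
Asns: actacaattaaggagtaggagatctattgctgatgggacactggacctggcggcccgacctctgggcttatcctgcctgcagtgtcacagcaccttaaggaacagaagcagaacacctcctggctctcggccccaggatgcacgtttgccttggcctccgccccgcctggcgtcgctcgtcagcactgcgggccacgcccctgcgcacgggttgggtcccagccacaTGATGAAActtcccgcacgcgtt

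RefSeq windows, from 250 bases before to 50 bases after the start, were matched for 32 of the 39 genes. Cars, Hars, Lars, Nars, Rars, Vars and Wars had none. TGATGNAA occurred on either strand in the windows of 13 of the 32 genes (40.6%), against 4.51% of 27025 genes with a window, and in 13 of their 37 windows (35.1%) against 3.97% of 32851 windows of this length. Several of these genes are on the list because they are known ATF4 targets. Of the 14 matches, 10 read TGATGCAA. A match before the start was held by 10 genes, and 9 of these are shown with 10 bases on each side, written on the strand that reads TGATGNAA, with the core in capitals.
Chac1: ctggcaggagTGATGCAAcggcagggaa
Asns: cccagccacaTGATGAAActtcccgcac
Nupr1: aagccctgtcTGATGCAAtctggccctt
Fgf21: cctggacggaTGATGCAAtgggggggtc
Got1: gaggcttgtaTGATGCAAccaatgcaat
Pycr1: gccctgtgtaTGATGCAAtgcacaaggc
Jdp2: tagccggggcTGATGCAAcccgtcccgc
Gars: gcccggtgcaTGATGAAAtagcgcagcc
Tars: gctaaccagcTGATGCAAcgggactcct
Asns and Gars carry the core with A in place of the free letter, and the others shown carry C. The first base of the match lay 193 bases before the start in Chac1, between 139 and 102 before it in Fgf21, Nupr1, Pycr1 and Got1, and between 33 and 15 before it in Jdp2, Gars, Asns and Tars. Trib3, Iars and Yars had a match only after the start.

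The 12 tested genes with a match all had a log2 fold change above 0, with a median of 0.38, and 2 of them were called. Of the 19 tested genes with a window and no match, 15 were above 0, with a median of 0.27, and 1 was called. The call rates at the unadjusted threshold were 6 of 12 and 9 of 19. Genes with a large fold change stood on both sides: Atf5, Cebpb and Gdf15 had no match, whereas Got1 and Yars had one and log2 fold changes of 0.16 and 0.16. TGACGTCA, the cAMP response element, occurred in the window of 1 gene, Ppp1r15a (3.13% of the 32, all genes 2.03%), and the ER stress response element in none (all genes 0.137%). A match describes letters in a window and not a bound site.

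**Figure D2:**
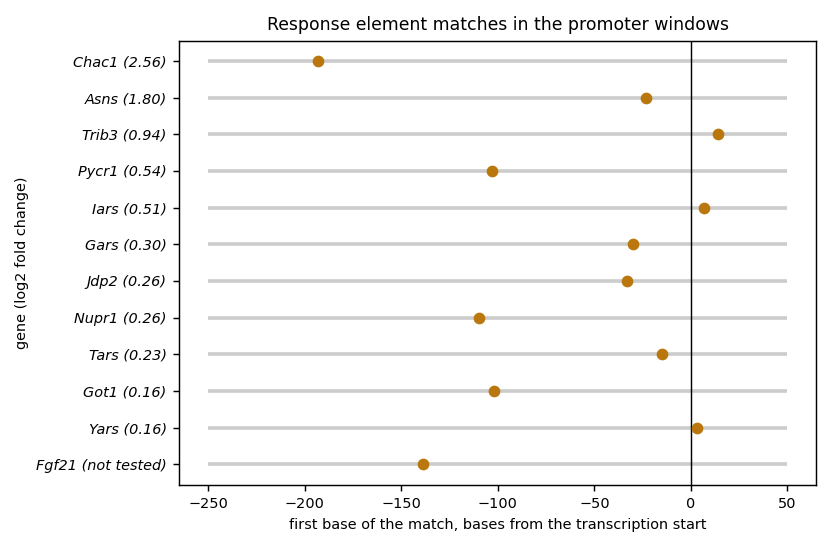
Position of the response element core in the promoter windows of 12 genes: horizontal axis, first base of the match in bases from the transcription start; grey bars, the window of 250 bases before to 50 after the start; each point, 1 match, with the log2 fold change of the gene in brackets. The genes are ordered by fold change, from Chac1 (2.56) to Yars (0.16), and Fgf21 was not tested; matches near the start and far from it occur along the whole order.

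Among the 7 transcription factors, 1 was called (Atf5), 4 had an unadjusted p under 0.05, all higher in obese atria, and 6 had a log2 fold change above 0 (median 0.42). Of all genes tested with limma, 0.484% were called higher, 6.66% were higher at an unadjusted p under 0.05, and 50.8% were above 0. The same shares apply to the counts of the roles and lists below. Atf5 (chr7:44812257-44816658) had 2905, 2652 and 2466 normalized counts in obese mice 1, 2 and 3 and 1602, 1407 and 1037 in lean mice 1, 2 and 3. Each obese mouse was thus far above the highest lean mouse, and lean mouse 3 was the lowest. The means were 2674 ± 221 and 1349 ± 287 (SD, n = 3 each), with a log2 fold change of 1.01 (SE 0.16, adjusted p = 0.0234). The call was lost without obese mouse 1 (adjusted p = 0.0703), obese mouse 2 (0.085), lean mouse 2 (0.0885) or lean mouse 3 (0.0613), while the log2 fold change stayed between 0.83 and 1.14. Atf5 overlaps Nup62 by 571 bases and Il4i1 by 289 bases on the opposite strand, and these had log2 fold changes of -0.16 and -0.71.

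Cebpb encodes C/EBPβ, a partner of ATF4 that also acts in adipocytes and macrophages. It had 965, 875 and 804 normalized counts in obese mice 1 to 3 and 481, 514 and 245 in lean mice 1 to 3. The groups were well separated, and lean mouse 3 was well below the other two lean mice. Its log2 fold change of 1.16 (SE 0.24) had an adjusted p of 0.0657 by limma and 0.00029 by DESeq2. With 1 mouse left out the adjusted p was 0.0433 without obese mouse 3 and 0.0762 to 0.175 in the other 5 fits, and the log2 fold change was lowest without lean mouse 3 (0.82). Tmem189, which overlaps Cebpb by 908 bases on the opposite strand, had a log2 fold change of -0.04. Cebpg, which encodes another ATF4 partner, had 738, 654 and 843 in obese and 424, 564 and 543 in lean mice, a log2 fold change of 0.55 (SE 0.15, adjusted p = 0.144, DESeq2 0.0477). All obese values were higher than all lean values, the nearest being obese mouse 2 and lean mouse 2.

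Atf4 itself (chr15:80255184-80257540) had 2258, 1584 and 2428 normalized counts in obese mice 1, 2 and 3 and 1564, 1522 and 1514 in lean mice 1, 2 and 3. The lean values were within a narrow range, obese mouse 2 lay just above them, and obese mice 1 and 3 were clearly higher. The means were 2090.2 ± 447 and 1533 ± 27.0 (SD, n = 3 each), and the log2 fold change was 0.42 (95% interval 0.08 to 0.77), which did not pass the adjusted threshold (adjusted p = 0.298). Ddit3, which encodes the pro-apoptotic factor CHOP and is a well-known marker of strong or lasting activation of the pathway, had 331, 279 and 373 in obese and 327, 365 and 316 in lean mice. The groups overlapped fully. Its log2 fold change of -0.04 had a 95% interval of -0.38 to 0.29 (adjusted p = 0.946), which leaves out the log2 fold changes fitted for Atf5 and Cebpb. The last 68 bases of Ddit3 overlap the synthetase gene Mars on the opposite strand. Nupr1 and Jdp2, which encode stress-induced nuclear proteins, had log2 fold changes of 0.26 and 0.26, with overlapping groups. Per kilobase of exon, the mean level of these factors over the 6 mice ranged from 62.9 normalized counts (Nupr1) to 1009 (Atf5).

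**Figure D3:**
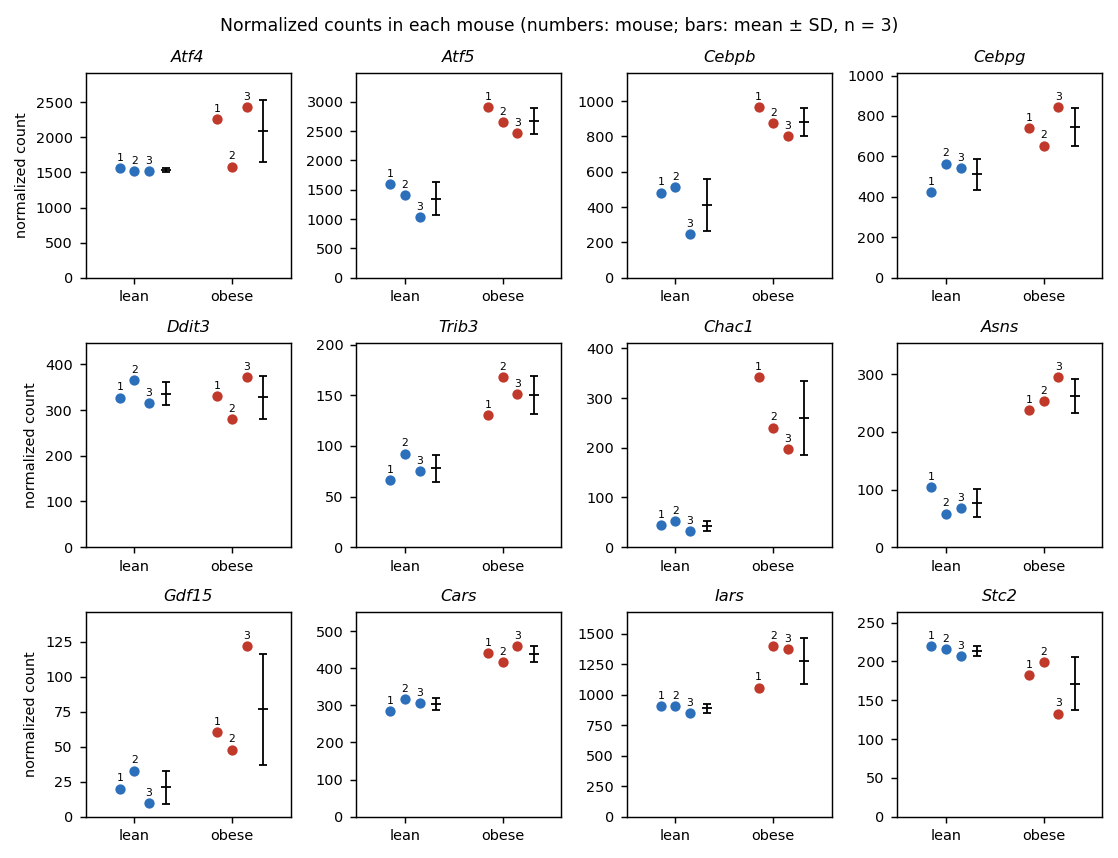
Normalized counts (vertical axis, from 0) of 12 genes in each of the 3 lean (blue) and 3 obese (red) mice, numbered by mouse, with the mean and SD of each group as a bar. For Chac1, Asns and Atf5 the groups stand far apart, for Atf4 obese mouse 2 sits beside the lean mice, for Ddit3 the groups overlap, and for Stc2 the obese mice are below the lean mice.

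The 6 genes of the eIF2 arm and its feedback all had log2 fold changes above 0 (median 0.28), with 1 called (Chac1) and 2 at an unadjusted p under 0.05. Chac1 (chr2:119351229-119354381), the gene with the response element 193 bases before its start, had 343, 241 and 196 normalized counts in obese mice 1, 2 and 3 and 44.8, 52.7 and 31.7 in lean mice 1, 2 and 3. The lowest obese mouse was several times the highest lean mouse. The means of 259.9 ± 74.9 and 43.1 ± 10.6 (SD, n = 3 each) gave a log2 fold change of 2.56 (SE 0.27, adjusted p = 0.00403), and the gene was called in all 6 fits that left out 1 mouse, at log2 fold changes from 2.34 to 2.74. CHAC1 cleaves glutathione in the cytosol.

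Trib3 encodes a pseudokinase that binds ATF4 and dampens it. It had 131, 168 and 151 normalized counts in obese mice 1 to 3 and 66.1, 92.4 and 75.4 in lean mice 1 to 3. All obese mice were above all lean mice. The log2 fold change was 0.94 (SE 0.21), with an adjusted p of 0.0797 by limma and 0.0201 by DESeq2. Sesn2, which encodes a stress-induced inhibitor of mTORC1, and Ppp1r15a, which encodes GADD34, the subunit that directs a phosphatase to eIF2, had log2 fold changes of 0.38 and 0.19 with overlapping groups. For Sesn2 the obese mice were close together, at 163, 159 and 160.2 normalized counts, and lean mouse 1, at 167, was above all of them while the other two lean mice were lower. The genes for the amino acid sensor kinase GCN2 (Eif2ak4) and the α subunit of eIF2 (Eif2s1), the upstream part of the arm, had log2 fold changes of 0.06 (95% interval -0.38 to 0.49) and 0.02 (-0.25 to 0.28). The small value of Eif2s1 turned to -0.014 under quantile normalization.

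All 5 genes of amino acid synthesis had log2 fold changes above 0 (median 0.54), with 1 called (Asns) and 2 at an unadjusted p under 0.05. Asns (chr6:7675169-7693254) had 238, 253 and 295 normalized counts in obese mice 1, 2 and 3 and 104, 58.2 and 67.8 in lean mice 1, 2 and 3. The obese mice lay close together, and lean mouse 1 was the highest of the lean mice but well below them. The means were 262 ± 29.7 and 76.7 ± 24.2 (SD, n = 3 each), and the log2 fold change was 1.80 (SE 0.23, adjusted p = 0.00937). The adjusted p rose just over 0.05 without obese mouse 2 (0.0517), lean mouse 2 (0.0501) or lean mouse 3 (0.0613), at log2 fold changes of 1.62 to 2.04 over all 6 fits.

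Aldh18a1 and Pycr1 encode the first and last enzymes of proline synthesis from glutamate. Aldh18a1 had 401, 338 and 565 normalized counts in obese and 255, 294 and 309 in lean mice 1 to 3, a log2 fold change of 0.57 (SE 0.19, adjusted p = 0.238), with obese mouse 3 the highest and no overlap. Pycr1 had a similar log2 fold change of 0.54 (SE 0.26, adjusted p = 0.45), but obese mouse 2 fell among the lean mice. Got1 and Gpt2, the aspartate and alanine transaminases, had log2 fold changes of 0.16 and 0.05. Got1 was by far the most abundant of all 39 genes, at a mean of 4459 normalized counts per kilobase of exon, and Asns had 61.9.

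None of the 3 secreted factors was called by limma or edgeR, and the 2 tested had log2 fold changes of opposite sign. Gdf15, whose product signals to the brainstem and lowers food intake, had 60.3, 47.9 and 122 normalized counts in obese mice 1, 2 and 3 and 20.2, 32.9 and 9.84 in lean mice 1, 2 and 3. All obese mice were above all lean mice, and obese mouse 3 was more than 2 times obese mice 1 and 2. The log2 fold change was large but uncertain, 1.86 (SE 0.48, 95% interval 0.78 to 2.93), with an adjusted p of 0.12 by limma and 0.0106 by DESeq2. Fgf21, which encodes a hormone made mainly in the liver, was at the edge of detection, with 0, 5 and 3 reads in obese mice 1, 2 and 3 and 0, 0 and 1 in lean mice 1, 2 and 3. Only the library of obese mouse 2 held more than the 3 reads taken as the smallest signal, so the levels cannot be compared at this depth, although the promoter carries the element. Stc2, which encodes the glycoprotein stanniocalcin 2, was the 1 gene with all obese values below all lean values, 183, 199 and 133 against 219, 216 and 207 normalized counts. Its log2 fold change of -0.34 (95% interval -0.75 to 0.07) had an adjusted p of 0.515.

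The 18 cytosolic aminoacyl-tRNA synthetases, which join each amino acid to its tRNA, had log2 fold changes between -0.17 (Dars) and 0.53 (Cars). None was called by limma or edgeR, and 3 were called higher by DESeq2 (Cars, Iars and Aars). An unadjusted p under 0.05 was seen for 7, all higher in obese atria, against 6.66% of all genes. A log2 fold change above 0 was seen for 14 (median 0.20, all genes 50.8%), of which Kars and Rars were below 0 after quantile normalization. In 9 all obese values lay above all lean values, against 8.86% of all genes. The median difference of the 18 from the lean mean was 0.12, 0.10 and 0.34 on the log2 scale in obese mice 1, 2 and 3. Cars, for cysteine, had 441, 417 and 459 normalized counts in obese and 286, 317 and 306 in lean mice 1 to 3, with a log2 fold change of 0.53 (SE 0.13, adjusted p = 0.0966, DESeq2 0.0397). Both groups were tight and clearly apart.

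Iars, for isoleucine, had 1059, 1396 and 1377 normalized counts in obese and 909, 909 and 848 in lean mice 1 to 3. Obese mouse 1 was nearer to the lean mice than to the other two obese mice. The log2 fold change was 0.51 (SE 0.13, adjusted p = 0.117, DESeq2 0.0214). Aars, for alanine, had 1689, 1755 and 2194 in obese and 1429.8, 1346 and 1301 in lean mice, a log2 fold change of 0.46 (SE 0.13, adjusted p = 0.14, DESeq2 0.0356), with obese mouse 3 the highest. Mars, for methionine, had 1076, 1080.0 and 1219 in obese and 887, 863 and 747 in lean mice, a log2 fold change of 0.44 (adjusted p = 0.142). Its groups were also apart, with lean mouse 3 the lowest.

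Eprs, the fused synthetase for glutamate and proline, had 1912, 2159 and 2039 normalized counts in obese and 1495, 1483 and 1689.8 in lean mice 1 to 3 (log2 fold change 0.39, adjusted p = 0.154). Gars, for glycine, had 1369, 1316 and 1486 in obese and 1109.6, 1164 and 1106 in lean mice (log2 fold change 0.30, adjusted p = 0.282). Sars, for serine, had 1434, 1283 and 1393 in obese and 1129.8, 1173 and 1109 in lean mice (log2 fold change 0.27, adjusted p = 0.349). For each of these the lowest obese value was above the highest lean value, by a smaller ratio than for Cars. Nars and Yars, for asparagine and tyrosine, also did not overlap, at log2 fold changes of 0.19 and 0.16 and without an unadjusted p under 0.05.

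The other 9 synthetases ranged from -0.17 (Dars, for aspartate, 95% interval -0.43 to 0.09) to 0.23 (Tars, for threonine, -0.10 to 0.55), and their groups overlapped. Dars, Qars, Vars and Hars were below 0, and Kars and Rars, at 0.015 and 0.0050, turned to -0.028 and -0.025 under quantile normalization. Wars, for tryptophan and known to be induced by interferon, had 736, 684 and 1429 normalized counts in obese mice 1, 2 and 3 and 793, 953 and 803 in lean mice, so that obese mouse 3 stood far above the other 5 mice. Its log2 fold change of 0.08 became -0.25 without that mouse. The 8 synthetases that sit in the multisynthetase complex had a median log2 fold change of 0.11, with 3 at an unadjusted p under 0.05, and the 10 outside it a median of 0.21, with 4. Per kilobase of exon, the mean level over the 6 mice ran from 56.3 normalized counts for Cars, the lowest of the 18, through 99.2 for Eprs and 205 for Iars to 403 for Gars, the highest. This order depends on the annotated length, which merges the exons of all transcripts. Eprs, at 18102 bases, had the highest mean of the 18 before division by length (1796 normalized counts).

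The mitochondrial synthetases are encoded by separate genes and load tRNA inside the organelle. All 17 were tested and none was called by limma, edgeR or DESeq2 or had an unadjusted p under 0.05. Their log2 fold changes ran from -0.34 (Lars2) to 0.04 (Pars2), with a median of -0.08, and 2 of the 17 were above 0. Lars2 varied widely among the lean mice, from 4079 normalized counts in lean mouse 3 to 9320 in lean mouse 2, and its groups overlapped. The smallest unadjusted p belonged to Fars2 (-0.23), Rars2 (-0.31) and Hars2 (-0.23), with adjusted p-values of 0.545, 0.568 and 0.576. The difference between the compartments was not tested. The remaining cytosolic synthetase genes Farsa and Farsb and the complex scaffold genes Aimp1, Aimp2 and Eef1e1 had a median log2 fold change of -0.01, and none of the 5 was called by the 3 tools or had an unadjusted p under 0.05, the smallest belonging to Eef1e1 (-0.21), Aimp2 (-0.17) and Farsa (0.13).

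**Figure D4:**
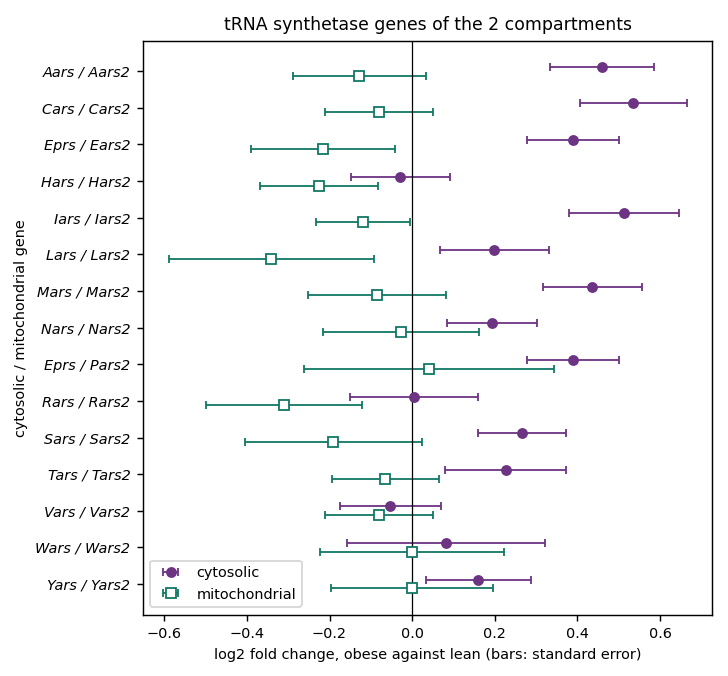
Log2 fold change of obese against lean atria (horizontal axis, bars: standard error) for 15 pairs of cytosolic (filled circles) and mitochondrial (open squares) synthetase genes; Eprs stands in 2 of them, and not every pair is shown. The cytosolic genes reach 0.53 (Cars), whereas the mitochondrial genes lie between -0.34 (Lars2) and 0.04 (Pars2).

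The mice of the obese group did not contribute alike. The median difference of the 38 genes from the lean mean, on the log2 scale, was 0.29, 0.15 and 0.38 in obese mice 1, 2 and 3, against 0.02, 0.04 and -0.04 in lean mice 1, 2 and 3. Obese mouse 3 had the highest value of the 6 mice for 18 genes, 10 of them synthetases, obese mouse 1 for 10, and obese mouse 2 for 5. Lean mouse 3 had the lowest value for 15. The share of all genes highest or lowest in each mouse is not given here, so these counts only describe the list. Chac1, Atf5 and Cebpb were highest in obese mouse 1, whereas Asns, Gdf15 and Cars were highest in obese mouse 3, and Trib3 in obese mouse 2, so that the order of the obese mice was not shared by these genes. The median log2 fold change of the list stayed between 0.23 and 0.30 when each mouse was left out in turn.

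**Figure D5:**
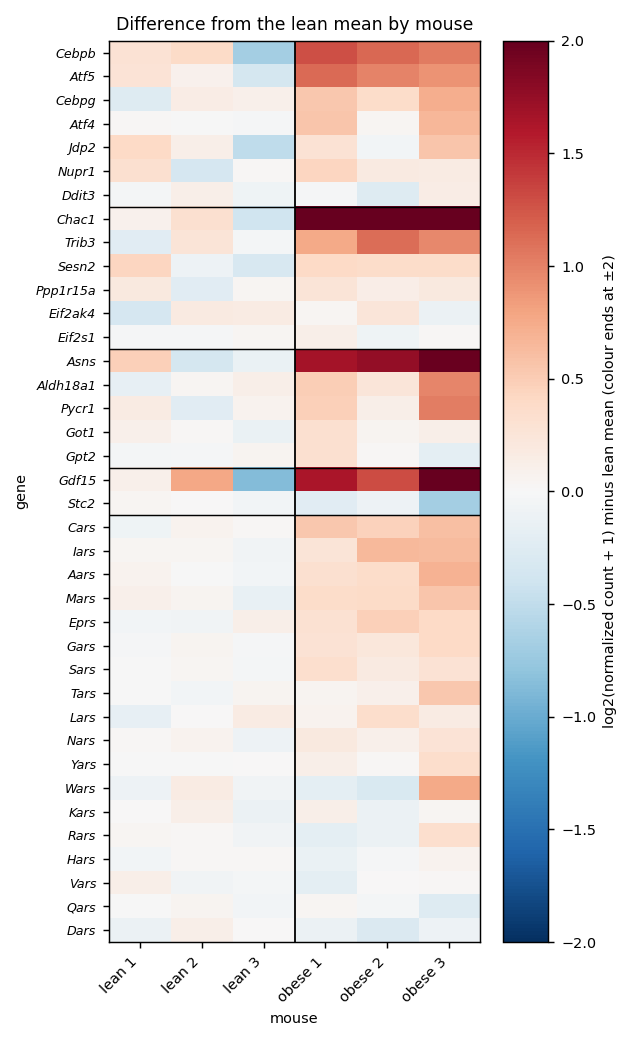
Difference of log2(normalized count + 1) from the lean mean (colour, ending at plus and minus 2) for the 38 tested genes (rows, by role) in each mouse (columns). Chac1, Asns and Gdf15 are dark red in all 3 obese mice, the upper synthetase rows are pale red, and lean mouse 3 is blue for Cebpb, Gdf15 and Jdp2.

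Other genes of the pathway showed a similar mixture of a few large and many small differences. Of 25 further ATF4 target genes, 2 were called, both higher in obese atria, 8 had an unadjusted p under 0.05 with a higher level, and 19 were above 0 (median log2 fold change 0.29). Mthfd2, which encodes a mitochondrial enzyme of one-carbon metabolism, had 389.8, 369 and 413 normalized counts in obese mice 1, 2 and 3 and 98.5, 149 and 102 in lean mice, all obese mice being far above the lean mice, with a log2 fold change of 1.76 (SE 0.19, adjusted p = 0.00403), and was called in all 6 fits without 1 mouse. Slc7a5, which encodes the large neutral amino acid transporter LAT1, had 321, 384 and 387 in obese and 180.3, 162 and 174 in lean mice, again with no overlap, and a log2 fold change of 1.08 (SE 0.15, adjusted p = 0.014). It lost the call without obese mouse 2, lean mouse 2 or lean mouse 3, with an adjusted p of 0.0613 to 0.0824.

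The 15 further genes of eIF2 signalling, among them the other eIF2 kinases and the subunits of eIF2B, had a median log2 fold change of -0.0047 and no call by limma, edgeR or DESeq2. Ppp1r15b, the constitutive partner of the eIF2 phosphatase, was the 1 gene with an unadjusted p under 0.05 (0.42, adjusted p = 0.281). Next came Eif2ak3, which encodes the ER stress kinase PERK (0.39, adjusted p = 0.447), and Ppp1ca (-0.20, 0.544). The 15 genes of the ATF6 and XBP1 branch of the unfolded protein response, mostly ER chaperones, had log2 fold changes above 0 in 15 of 15 (median 0.29). None was called by the 3 tools, and 3 had an unadjusted p under 0.05, Edem1 (0.50, adjusted p = 0.162), Dnajc3 (0.38, 0.348) and Hsp90b1 (0.40, 0.394). Obese mouse 3 had the highest value for 13 of these 15 genes, and the summed level was 27757 and 31165 normalized counts in obese mice 1 and 2, 50525 in obese mouse 3 and 28407 to 30235 in the lean mice.

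The summed levels of the markers of several cell types lay apart between the diets, some higher and some lower in obese atria. The 5 brown adipocyte markers summed to 776 to 1664 normalized counts in obese and 454 to 596 in lean atria. Of the 4 tested, 2 were called higher by limma, Ucp1 (4.43, adjusted p = 0.0446) and Cidea (1.21, 0.031). Ucp1 was not called by edgeR with TMM (adjusted p = 0.0618). Dio2 (1.32, limma adjusted p = 0.0591) was not called but did not overlap, and Ppargc1b (-0.12) overlapped. Elovl3 was at 0 in lean mice 2 and 3. The 8 white adipocyte markers summed to 8455 to 15701 in obese and 4160 to 8065 in lean atria, with 1 called higher, Lipe (1.56, adjusted p = 0.0171). The groups did not overlap for Lipe and Fabp4 and overlapped for the other 6, among them Adipoq, Retn (0.03) and Lep (-1.41). The 6 macrophage markers summed to 8425 to 9779 and 6087 to 7827, with Itgam (1.18) and Cd163 (0.95) called higher. Cd68 (0.37) was not called but its groups did not overlap. Those of Lyz2 (0.35), Adgre1 (0.23) and Csf1r (-0.0086) overlapped. Endothelial markers summed to 16641 to 18671 and 14059 to 14222, with none of 5 called by limma or edgeR, 2 at an unadjusted p under 0.05 and 1 called by DESeq2. The groups did not overlap for Pecam1 (0.57), Vwf (0.36) and Tie1 (0.16) and overlapped for Kdr (0.14) and Cdh5 (0.04). The 5 ventricular myocyte markers summed to 16219 to 17355 in obese and 20006 to 26039 in lean atria (median log2 fold change -0.36), with 2 lower at an unadjusted p under 0.05, none called by limma or edgeR and 1 called lower by DESeq2. Mylk3 (-0.36), by far the most abundant of the 5, had 10999, 11229 and 10312 normalized counts in obese and 13559, 14105 and 14205 in lean mice. Its groups did not overlap, whereas those of Myl2, Myh7, Irx4 and Hey2 (0.21) did. Myl2 was highest in lean mouse 2, at 8176 normalized counts. The 8 mitochondrially encoded genes used as a sign of RNA quality summed to 2520920 to 3131520 in obese and 3189520 to 3718720 in lean atria and all had log2 fold changes below 0 (median -0.31), with all obese values below all lean values for 4 and none called or at an unadjusted p under 0.05. The 4 liver markers summed to 13.6 to 37.2 in obese and 2.74 to 13.4 in lean atria, with Alb and Serpina1a each at 0 in all 3 lean and in 2 obese mice. The nearest sums, 13.63 in obese mouse 3 and 13.44 in lean mouse 1, lay within 1 read (1.14 and 1.12 normalized counts), so the liver sums were not clearly apart. Ttr, the only 1 high enough to be tested, had 35.2, 29.6 and 10.2 in obese and 7.84, 2.05 and 10.9 in lean mice. Its groups overlapped. The sums of the fibroblast, mesothelial, erythroid and lymphocyte markers overlapped between the groups. The part of these cell types, of the myocyte markers and of RNA quality in the differences of Chac1, Asns, Atf5 and the other genes above was not tested.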

How the data were processed

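Bulk RNA of the atria of 6 mice was sequenced by the authors in reads of 50 bases, aligned with STAR to GRCm38 (Ensembl 79), kept where uniquely mapped and assigned to genes with Salmon. Versions, and whether strand was used in counting, are not given in the sources used here, so the values of genes with an overlapping gene on the other strand are uncertain. The signal the authors deposited for a gene is its reads in a mouse over that mouse's DESeq2 size factor. The table also holds the authors' own comparison of the groups, which was not used. Dividing each mouse's values by the smallest positive value gave whole reads for 100% of values (tolerance 0.001).

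Gene names, in capitals in the table, were matched ignoring case. Genes whose mean over the 6 mice reached 10 were compared on log2(value + 1) with limma 3.58.1 in R 4.3.3 (lmFit, eBayes with a variance trend), without covariates, with Benjamini-Hochberg adjustment over all genes tested; this scale understates changes of low genes. The design had provided for either counts or normalized values. Values of every mouse are printed for the listed genes with an unadjusted p under 0.05 and for Atf4, Ddit3, Asns, Trib3, Chac1, Fgf21 and Gdf15. From each other list, the genes with an adjusted p under 0.05 are named, or else up to 3 with the smallest unadjusted p; Stc2, Sesn2, Wars and the cell type markers outside this rule were named after their values were seen. The genes and lists were chosen with earlier results of these data known. Alternatives were quantile normalization, mitochondrial genes left out, no variance trend, no filter, at least 10 in every sample, a pseudocount of 0.1, a replicate block, each mouse left out, and edgeR 4.0.16 (TMM or RLE) and DESeq2 1.42.0 on the recovered reads. The test was tested on simulated data. The mice of a group are separate samples. The limma p-values set a difference against the spread between them, drawn by the variance trend toward that of genes of similar level. 1 gene of the mitochondrial list and the promoter match of 1 gene, counted above, are not reported here individually. Promoter windows are RefSeq's, and levels per kilobase use the merged GENCODE exons of all transcripts of a gene, which can be longer than its mRNA.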

Additional observations from a re-analysis of the deposited data

How the results depend on the processing

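Chac1, Asns and Atf5 kept their direction in all 16 alternatives. The 114 called genes (74 higher, 40 lower) and the 3 listed genes among them depended on the variance model: limma without a variance trend called 0 genes in either direction and 0 of the listed genes, with 1717 genes (872 higher, 845 lower) and 14 listed genes at an unadjusted p under 0.05, while Chac1, Asns and Atf5 had adjusted p-values of 0.0862, 0.123 and 0.178. DESeq2 called 483 genes (297 higher, 186 lower) and 10 listed genes, and edgeR with TMM 87 genes and 3 listed genes. Leaving out each mouse in turn gave 14 to 342 genes, 10 to 218 higher and 4 to 124 lower, and 1 to 4 listed genes. For the counts over all genes the lowest came without lean mouse 2 and the highest without obese mouse 3. The causes were not tested. The median log2 fold change of the list and the number of genes without overlap stayed within the spread or within 1.5 times of the values reported in all alternatives run for them. Leaving out a mouse cannot make separated groups overlap, so these fits do not show that the number without overlap is stable.

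Whether mice with the same replicate number were matched is not known. The deviations of same-numbered mice correlated at 0.116, -0.027 and -0.0039. Those of differently numbered mice correlated between -0.147 and 0.160, so these values cannot decide it. With the number as a block, 157 genes were called, 113 of them higher, and 4 listed genes, Cebpb (adjusted p = 0.0205) joining the other 3.

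Changes of sign were confined to listed genes with log2 fold changes near 0 and no call. Quantile normalization gave -0.014 for Eif2s1, -0.028 for Kars and -0.025 for Rars. With 1 mouse left out the log2 fold change ranged from -0.14 to 0.066 for Ddit3, -0.086 to 0.17 for Gpt2, -0.11 to 0.15 for Eif2ak4, -0.034 to 0.069 for Eif2s1, -0.080 to 0.024 for Hars, -0.047 to 0.078 for Kars, -0.16 to 0.11 for Rars, -0.091 to 0.018 for Vars and -0.25 to 0.28 for Wars. The other 29 of the 38 kept their sign in all alternatives run for them, 16 for each except Gdf15, which fell under the minimum of 10 in every sample. A floor of 3 reads corresponds to 2.05 to 3.41 normalized counts, counting error only.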

Other observations

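Of 7 genes of the mitochondrial stress response, none was called by limma, edgeR or DESeq2. Dele1, whose product carries the signal of mitochondrial stress to the eIF2 kinase HRI, had 1628, 1608 and 1745 normalized counts in obese mice 1, 2 and 3 and 2254, 2169 and 2008 in lean mice 1, 2 and 3. The obese values lay below all lean values, at a log2 fold change of -0.37 (SE 0.11, adjusted p = 0.160 from limma). The chaperonin genes Hspe1 and Hspd1 had log2 fold changes of 0.45 and 0.33 (adjusted p = 0.364 and 0.369), with all obese values above all lean values.

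Phgdh, which encodes the first enzyme of serine synthesis, had 193, 105 and 196 normalized counts in obese mice 1, 2 and 3 and 59.3, 75.3 and 42.6 in lean mice 1, 2 and 3. Its groups did not overlap, and its log2 fold change was 1.45 (SE 0.30, adjusted p = 0.0639 by limma and 0.000752 by DESeq2). Atf3, a transcription factor gene often raised by the pathway, had 85.4, 89.7 and 415 normalized counts in obese mice and 327, 125 and 699 in lean mice, and the spread within each group was larger than the difference between the groups (log2 fold change -1.05, SE 0.66, adjusted p = 0.576). Phgdh and Atf3 were chosen for mention after their values were seen.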
